A study of Homo sapiens with 12 samples.

Results

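Polyamines are small cations that dividing cells make from ornithine and S-adenosylmethionine (SAM) and need for growth. The 10 genes described here cover their synthesis (ODC1, AMD1, SRM and SMS), their breakdown (SAT1, SMOX and PAOX) and the control of ornithine decarboxylase by antizymes (OAZ1, OAZ2 and AZIN1). They were chosen by gene symbol and not by a cut on their values, though earlier results of these data were known. Each symbol had 1 transcript cluster, the set of probes that the array reads as a locus, so that the genes account for 10 of 67528 clusters and 10 of the 22465 genes with a single-symbol cluster. HT-29 and SW480 are established human colorectal adenocarcinoma lines. Cells were treated with 10000 ng/mL folic acid (FA) or kept without it in FA-free medium for 72 h, and total RNA was read on Human Transcriptome Array 2.0 chips. The groups were FA-treated SW480, untreated SW480, FA-treated HT-29 and untreated HT-29, with 3 arrays each labelled as biological replicates. All values are log2 signals as deposited, so that a difference of 1 is a doubling.

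Ornithine decarboxylase (ODC1) makes putrescine and is, with S-adenosylmethionine decarboxylase (AMD1), a rate-limiting step of the pathway. AMD1 turns SAM into the aminopropyl donor that spermidine synthase (SRM) and spermine synthase (SMS) consume, and SAM is regenerated by the methionine cycle, which draws its methyl groups from folate. SAT1 acetylates spermidine and spermine, PAOX oxidises the acetylated forms and SMOX oxidises spermine. Antizymes (OAZ1 and OAZ2) bind ODC and bring it to the proteasome, and the antizyme inhibitor AZIN1 binds antizyme in its place. ODC1 is a known target of MYC and is often raised in colorectal tumours. Much of this control acts on translation and protein stability, which an RNA array does not read.

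The RefSeq promoter table (GRCh38.p14) held 7 of the 10 genes, and SMOX, PAOX and AZIN1 were not matched. The 250 bases before the transcription start are printed, 5′ to 3′, for both rate-limiting enzymes (ODC1 and AMD1), for the gene with a MYC-type E-box (SRM) and for the gene with the largest difference between the lines (SAT1). Capitals mark CACGTG and TATAA.
ODC1 (chr2:10448328-10448577, minus strand): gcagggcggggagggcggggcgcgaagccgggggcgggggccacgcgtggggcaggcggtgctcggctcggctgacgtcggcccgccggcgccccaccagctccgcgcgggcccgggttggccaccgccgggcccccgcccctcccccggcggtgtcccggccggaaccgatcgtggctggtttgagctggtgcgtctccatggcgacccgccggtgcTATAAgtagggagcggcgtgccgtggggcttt
AMD1 (chr6:110874535-110874784, plus strand): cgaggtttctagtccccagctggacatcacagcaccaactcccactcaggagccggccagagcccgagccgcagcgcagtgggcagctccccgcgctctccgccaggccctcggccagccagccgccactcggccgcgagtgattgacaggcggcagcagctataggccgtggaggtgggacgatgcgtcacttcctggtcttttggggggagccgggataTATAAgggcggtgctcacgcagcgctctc
SRM (chr1:11060019-11060268, minus strand): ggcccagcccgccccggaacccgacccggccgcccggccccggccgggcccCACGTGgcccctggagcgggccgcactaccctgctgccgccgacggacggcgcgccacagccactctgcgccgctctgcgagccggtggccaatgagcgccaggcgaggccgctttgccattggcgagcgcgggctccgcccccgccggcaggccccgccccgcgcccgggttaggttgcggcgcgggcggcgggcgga
SAT1 (chrX:23782923-23783172, plus strand): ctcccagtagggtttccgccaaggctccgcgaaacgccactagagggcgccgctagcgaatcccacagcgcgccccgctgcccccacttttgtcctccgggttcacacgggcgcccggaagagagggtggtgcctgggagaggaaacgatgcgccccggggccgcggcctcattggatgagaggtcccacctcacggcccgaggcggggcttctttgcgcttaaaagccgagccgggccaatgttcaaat

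The letters CACGTG, searched on both strands, stood in 1 of the 7 promoters, that of SRM, and in 6.34% of all 35116 promoters of the table. TATAA stood at -32 in ODC1 and at -29 in AMD1, counted from the transcription start, and in 18.9% of all promoters. It was searched after the longer TATAAA, which contains it, had matched none of the 7 genes and 10.7% of all promoters. The GC box GGGCGG stood in 6 of the 7 promoters (42.6% of all), all but that of SAT1, with 6 copies in SRM and 4 in ODC1. The antioxidant response core TGACNNNGC stood in 0 of the 7 and in 10.9% of all. In AMD1 the GC box directly follows TATAA, and apart from TATAAA and TATAA no motifs overlap in these promoters. These matches describe letters only.

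The array of HT-29 0 ng/mL replicate 3 stood apart. It had a median of 4.75 against 4.30 to 4.40 on the other HT-29 arrays, and its correlations with them over all clusters were 0.944 to 0.954 against 0.988 to 0.995 among the others. Its clusters above 8 lay mostly below the mean of untreated replicates 1 and 2, by a median of 0.77 for signals between 8 and 10 and of 1.11 between 12 and 14. Among the polyamine genes it deviated from that mean by -2.615 for OAZ1, -1.5 for AMD1, -0.77 for SRM and -0.46 for ODC1, but by 0.17 for SMOX and AZIN1. The FA differences and counts of the polyamine genes in HT-29, and their differences between untreated lines, are therefore also given without it. Of 10 colon epithelial markers, 7 in SW480 and 8 in HT-29 exceeded the array median on every array, KRT8 highest at 16.75 and 17.06. Fibroblast markers did so for 1 of 6 in SW480 and 0 of 6 in HT-29, endothelial markers for 0 of 4 in each line and leukocyte markers for 2 of 6 in each, CD68 and lysozyme (LYZ), which averaged 18.55 in HT-29.

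**Figure D1:**
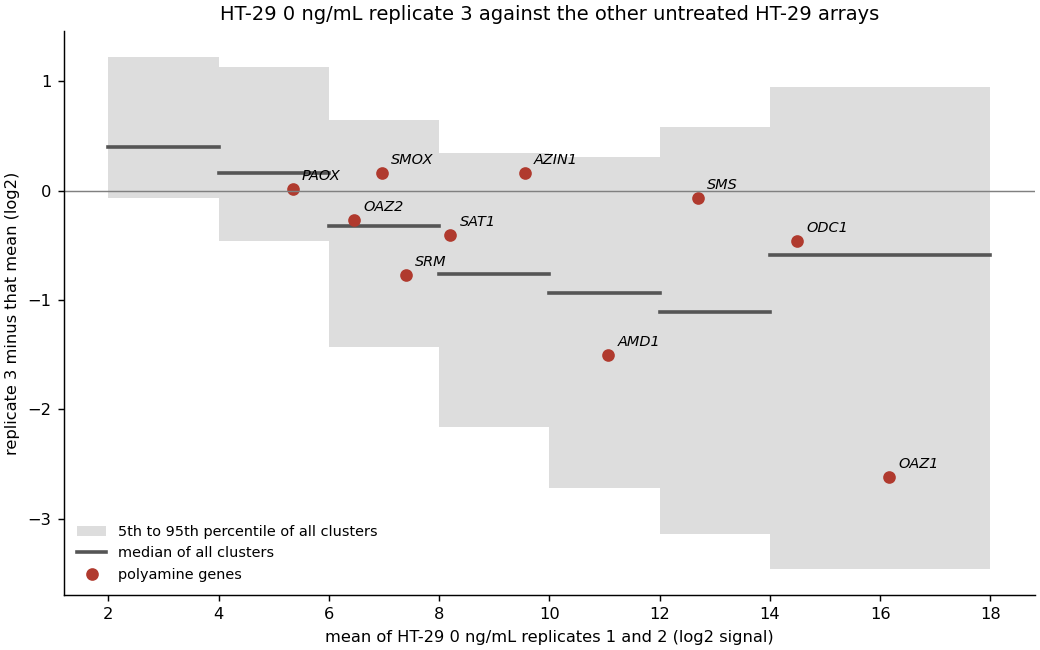
Deviation of HT-29 0 ng/mL replicate 3 from the mean of replicates 1 and 2 (vertical axis, log2) against that mean (horizontal axis, log2 signal), with the median and the 5th to 95th percentile of all clusters in bins of signal, the lowest and highest bins being open-ended. OAZ1, AMD1, SRM and ODC1 lie below 0, while SMOX, AZIN1 and PAOX lie slightly above it.

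All 4 synthesis enzymes had a higher mean in FA-treated than in untreated SW480 cells, and none of these differences passed the adjusted test. ODC1 (cluster TC02001570.hg.1) read 15.07, 15.47 and 15.05 on FA-treated SW480 arrays, against 14.79, 14.79 and 14.45 on untreated ones. Every treated array was above every untreated one. The difference was 0.52 ± 0.16 (SE), a factor of 1.43, with an unadjusted p of 0.0102 and an adjusted p of 1 in limma with Benjamini-Hochberg adjustment over all clusters. As total RNA was read, more transcript per cell and more cells with the transcript cannot be told apart, here and below. The difference ranged between 0.38 and 0.59 over the alternatives tried, with adjusted p between 0.247 and 1.

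SMS (TC0X000101.hg.1) read 13.65, 13.92 and 13.92 with FA and 13.65, 13.30 and 13.57 without it in SW480 cells. The groups met at a shared value of 13.65, and the difference was 0.32 ± 0.12 (unadjusted p = 0.0254, limma adjusted p = 1). SRM (TC01002195.hg.1) read 7.80, 8.05 and 8.29 on treated arrays and 7.83, 6.99 and 7.89 on untreated ones. The groups overlapped, replicate 2 of the untreated group being the low value, and the difference was 0.48 ± 0.27. AMD1 (TC06000883.hg.1) read 11.50, 11.78 and 11.52 with FA, against 11.50, 10.88 and 11.36 without it. Its difference of 0.35 ± 0.36 lay within the spread of the fit, which all 12 arrays share. When HT-29 0 ng/mL replicate 3 was left out of the fit, it was 0.35 ± 0.16 (limma unadjusted p = 0.0529, adjusted p = 0.582). Untreated replicate 2 was the lowest SW480 array for SMS, SRM and AMD1, and without it their differences were 0.22, 0.19 and 0.17. That array had a median over all clusters of 4.58, against 4.40 to 4.48 on the other SW480 arrays. Its correlations with them were 0.986 to 0.991. After a further quantile normalization of all arrays the differences of SMS, SRM and AMD1 in SW480 were 0.34, 0.41 and 0.32. Whether a shift of the whole array lowered the values of that replicate was not tested.

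In HT-29 cells the same 4 enzymes again had higher means with FA, without a call. SMS read 12.95, 13.24 and 12.91 in FA-treated HT-29, against 12.65, 12.75 and 12.63 in untreated HT-29. The groups did not overlap. The difference was 0.36 ± 0.12 (unadjusted p = 0.0160, limma adjusted p = 0.587) with all arrays and 0.33 ± 0.14 (unadjusted p = 0.0435, limma adjusted p = 1) without replicate 3 of the untreated group. Over all the alternatives its adjusted p lay between 0.0345 and 1, the lowest with array weights.

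AMD1 read 11.35, 11.33 and 11.20 with FA, against 11.17, 10.97 and 9.57 without it in HT-29 cells. The groups did not overlap with or without the low array, but the difference was 0.72 ± 0.36 with it and 0.22 ± 0.17 without it. ODC1 read 14.68, 14.73 and 14.57 on treated HT-29 arrays and 14.57, 14.41 and 14.03 on untreated ones. The difference was 0.32 ± 0.16, and 0.17 ± 0.15 without untreated replicate 3. SRM was nearly flat at 7.40, 7.47 and 7.40 with FA, against 7.40, 7.40 and 6.63 without it. Its difference of 0.28 ± 0.27 rested on the low array and was 0.02 ± 0.25 without it.

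**Figure D2:**
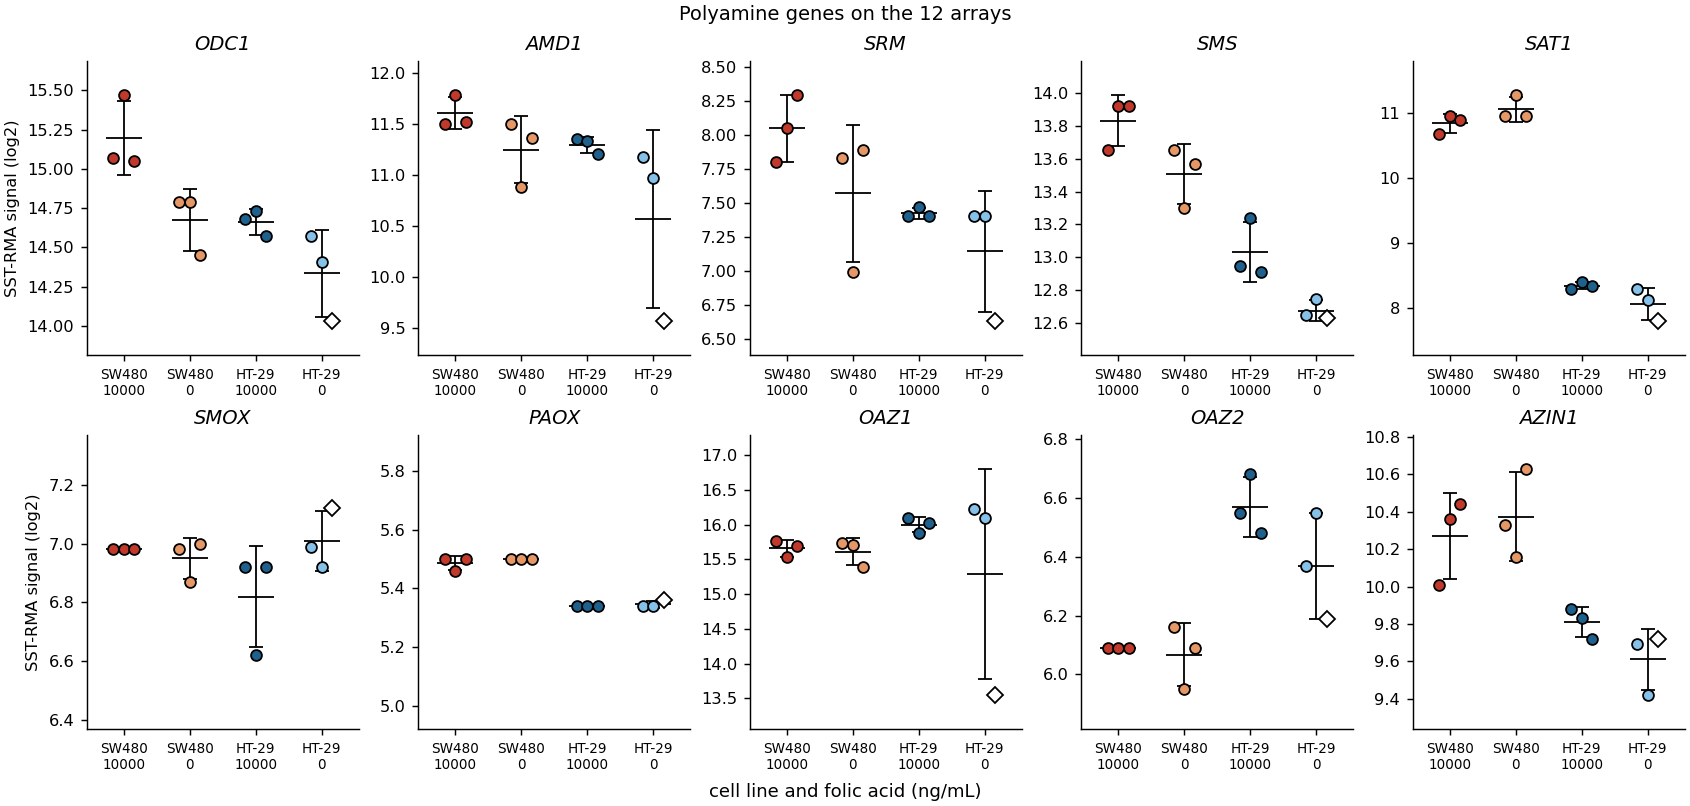
SST-RMA log2 signal (vertical axes, each panel with its own range) of the 10 polyamine genes on the 12 arrays by cell line and FA dose in ng/mL, with the group mean and SD as bars (n = 3 each) and HT-29 0 ng/mL replicate 3 as an open diamond. SAT1 lies between 10.68 and 11.28 in SW480 and between 7.80 and 8.41 in HT-29, and the open diamond is far below its group for OAZ1 and AMD1.

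The breakdown genes had no shared direction with FA. SAT1 (TC0X000112.hg.1) read 10.68, 10.95 and 10.90 in FA-treated SW480, against 10.95, 11.28 and 10.95 in untreated SW480. In HT-29 it read 8.29, 8.41 and 8.35 with FA, against 8.29, 8.12 and 7.80 without it. The treated and untreated arrays of each line shared a value at the edge of their ranges. The differences were -0.22 ± 0.14 in SW480 and 0.28 ± 0.14 in HT-29 (0.15 ± 0.12 without untreated replicate 3).

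SMOX (TC20000048.hg.1) read 6.98 on all 3 treated SW480 arrays, against 6.98, 6.87 and 7.00 on the untreated ones, a difference of 0.03 ± 0.09. In HT-29 it read 6.92, 6.62 and 6.92 with FA, against 6.99, 6.92 and 7.12 without it, and the difference of -0.19 ± 0.09 had an unadjusted p of 0.0620 (limma adjusted p = 0.587) and was -0.135 ± 0.09 without untreated replicate 3. PAOX (TC10002928.hg.1) had the same value of 5.50 on 5 of 6 SW480 arrays, with 5.46 on the remaining treated one. It read 5.34 on 5 of 6 HT-29 arrays, with 5.36 on untreated replicate 3. At least 5 of 6 arrays of each line shared a single value for 3.24% of all clusters. The differences with FA were -0.01 in both lines, smaller than their SE of 0.04, and 0 in HT-29 without untreated replicate 3.

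None of the genes that control ODC passed the test for FA, and their treated and untreated arrays overlapped in both lines when all arrays were kept. OAZ1 (TC19002618.hg.1) read 15.77, 15.53 and 15.69 in FA-treated SW480, against 15.73, 15.71 and 15.39 in untreated SW480. In HT-29 it read 16.09, 15.88 and 16.03 with FA, against 16.23, 16.10 and 13.55 without it. The value of 13.55, on the array that stood apart, decided the direction in HT-29. The difference was 0.71 ± 0.57 with that array and -0.17 ± 0.12 without it, and in SW480 it was 0.05 ± 0.57, or 0.05 ± 0.11 when that array was left out of the common fit.

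OAZ2 (TC15001552.hg.1) read 6.09 on all 3 treated SW480 arrays, against 6.16, 5.95 and 6.09 on the untreated ones. In HT-29 it read 6.55, 6.68 and 6.48 with FA, against 6.37, 6.55 and 6.19 without it. The differences were 0.02 ± 0.10 in SW480 and 0.20 ± 0.10 in HT-29 (0.11 ± 0.08 without untreated replicate 3). AZIN1 (TC08001501.hg.1) read 10.01, 10.36 and 10.44 in treated SW480 and 10.33, 10.16 and 10.63 in untreated SW480, a difference of -0.10 ± 0.15. In HT-29 it read 9.88, 9.83 and 9.72 with FA, against 9.69, 9.42 and 9.72 without it. That difference was 0.20 ± 0.15, 0.255 ± 0.17 without untreated replicate 3, and -0.07 after a further quantile normalization.

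**Figure D3:**
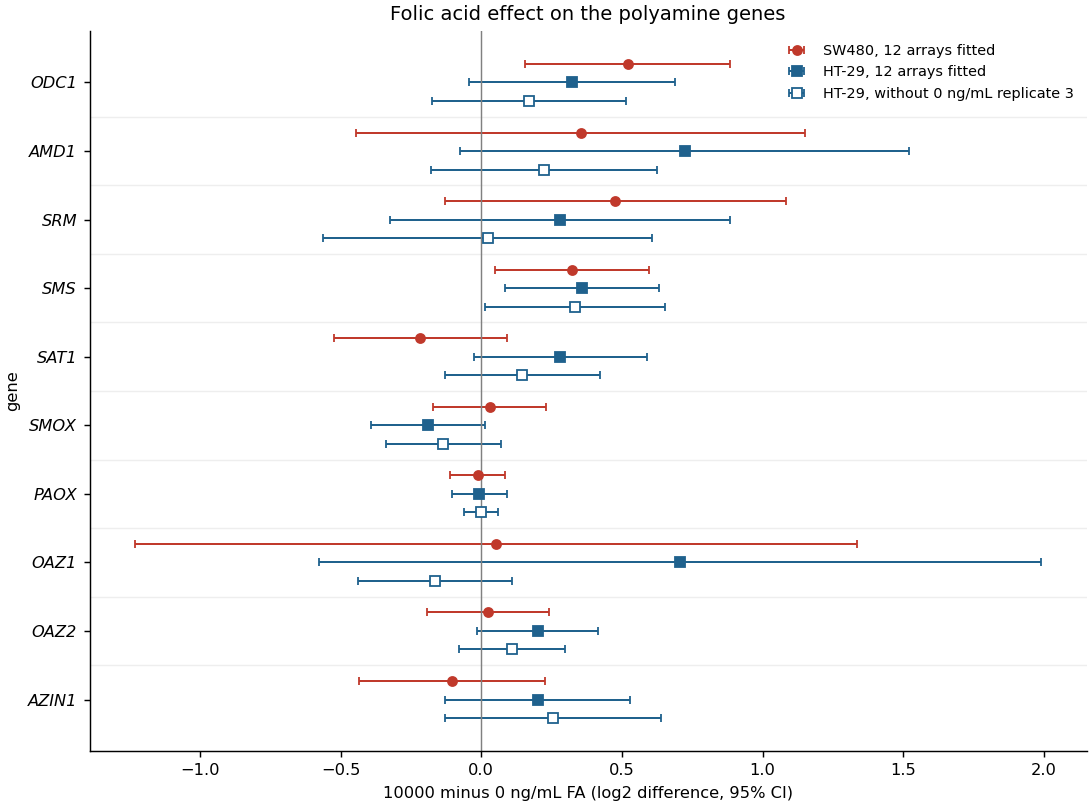
Difference between FA-treated and untreated cells (horizontal axis, log2, with 95% confidence interval) for each polyamine gene in SW480 and in HT-29, and in HT-29 without 0 ng/mL replicate 3. ODC1 and SMS in SW480 and SMS in HT-29 have intervals that leave out 0, and OAZ1 in HT-29 lies at 0.71 with that array and at -0.17 without it.

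By count, 0 of 10 genes passed the limma test (adjusted p under 0.05) for FA in SW480, where 0.00592% of all clusters passed, and 0 of 10 in HT-29, where 0% did. At an unadjusted p under 0.05 there were 2 genes in SW480 (4.06% of all clusters) and 1 in HT-29 (5.44%). The criteria that the study's methods state, an unadjusted p of at most 0.05 with a fold change of at least 1.5, were met by 0 of 10 genes in SW480 (1.04% of all clusters) and 0 of 10 in HT-29 (1.36%). Treated arrays lay above untreated ones without overlap for 1 gene in SW480 (2.99% of all clusters) and for 2 in HT-29 (1.41%). The mean was higher with FA for 7 of 10 genes in SW480 (39.7% of all clusters) and for 8 of 10 in HT-29 (31.1%). Among single-symbol clusters, to which the 10 genes belong, these shares were 42.8% in SW480 and 42.1% in HT-29. When untreated HT-29 replicate 3 was left out, the mean in HT-29 was higher for 7 of 10 genes (47.6% of all clusters and 55.9% of single-symbol clusters). Treated arrays then lay above untreated ones for 3 (AMD1, SMS and AZIN1, against 4.46% of all clusters), 1 gene had an unadjusted p under 0.05 (4.19%) and 0 met the criteria (0.706%). The median difference over the 10 genes was 0.04 in SW480, where that over all clusters was -0.02, and 0.28 in HT-29, where it was -0.08. Leaving out untreated replicate 3 made the HT-29 median 0.13, where the median over all clusters was -0.005. Scaling mattered here: the median of all clusters in HT-29 was 0.07 after centring each array on its median and 0.02 after a further quantile normalization. The HT-29 median over the 10 genes was 0.18 after that quantile normalization and 0.07 with array weights.

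For the synthesis enzymes alone the median difference was 0.42 in SW480, with a range of 0.32 to 0.52, and 0.34 in HT-29, or 0.20 without replicate 3 of the untreated group. All 4 kept a positive difference in both lines under each alternative tried, between 0.17 and 0.64 in SW480 and between 0.02 and 1.02 in HT-29. After subtraction of each line's mean, the 6 pairs of synthesis enzymes had Pearson correlations over the 12 arrays of 0.54 (ODC1 with SRM) to 0.81 (AMD1 with SRM). Without the array that stood apart they were 0.34 (ODC1 with SRM) to 0.81 (AMD1 with SMS). These arrays share their normalization and their FA contrast, so the correlations are a description. AMD1 and OAZ1 correlated at 0.86 with that array and at -0.24 without it.

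Whether the FA effect differs between the lines was tested as SW480 minus HT-29, and 0 of 10 genes passed in limma, as did 0% of all clusters. At an unadjusted p under 0.05 there was 1 gene, against 3.29% of all clusters. That gene was SAT1, with a difference of -0.50 (95% confidence interval -0.93 to -0.06, unadjusted p = 0.0293, limma adjusted p = 0.939). Without HT-29 0 ng/mL replicate 3 it was -0.36 (95% interval -0.73 to 0.01, unadjusted p = 0.0542). For ODC1 the difference was 0.20 (95% interval -0.32 to 0.71) and for SMS -0.03 (-0.42 to 0.35), so that larger effects in either line were not resolved. Within arrays, the ODC1 signal exceeded the SAT1 signal by 4.35 ± 0.19 in FA-treated SW480, against 3.62 ± 0.19 in untreated SW480 (SD, n = 3 each). In HT-29 this was 6.31 ± 0.09 with FA and 6.27 ± 0.03 without it. ODC1 minus AZIN1 was 4.93 ± 0.28 in treated and 4.30 ± 0.43 in untreated SW480. ODC1 minus OAZ1 was -0.47 ± 0.35 and -0.93 ± 0.01 there, and SMS minus SRM 5.78 ± 0.13 and 5.94 ± 0.33. These changes were not tested. The size of such a difference depends on the probes, and only its change between groups can be read.

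With all arrays in 1 fit, SAT1, SMS, AZIN1 and PAOX were higher and OAZ2 lower in SW480 than in HT-29 at both doses. ODC1 was higher in SW480 among treated cells. Only SAT1 kept its calls at both doses under every alternative tried. Among FA-treated cells 6 of 10 genes passed the limma test, 5 higher and 1 lower in SW480, where 41.1% of all clusters passed, 26% higher and 15.1% lower. Among untreated cells 5 of 10 passed, 4 higher and 1 lower, where 42.7% of all clusters did, 24.7% higher and 18% lower. The criteria of the methods were met by 3 genes at each dose (SAT1 and SMS at both, SRM with FA and AZIN1 without it), against 26.3% of all clusters with FA and 27.6% without it. Among single-symbol clusters, to which the 10 genes belong, 53% passed the limma test with FA and 53.7% without it. The share called was thus near these backgrounds. The treated arrays of the lines did not overlap for any of the 10 genes, against 67.9% of all clusters and 79.8% of single-symbol clusters.

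SAT1 had the largest difference of the 10. The values given above reach down to 10.68 in SW480 and up to 8.41 in HT-29, so the lines did not overlap at either dose. FA-treated SW480 exceeded FA-treated HT-29 by 2.49 ± 0.14, which is 5.63-fold (limma adjusted p = 3.49e-07), and untreated SW480 exceeded untreated HT-29 by 2.99 ± 0.14, which is 7.94-fold (limma adjusted p = 9.68e-08). Without HT-29 0 ng/mL replicate 3 the untreated difference was 2.86. SAT1 passed the test at both doses under every alternative tried, with adjusted p between 5.66e-10 and 0.000658 for the untreated lines.

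SMS followed, 1.74-fold higher in SW480 with FA (0.80 ± 0.12, limma adjusted p = 0.000522) and 1.78-fold without it (0.83 ± 0.12, limma adjusted p = 0.000396). A further quantile normalization lowered the untreated difference to 0.44 (adjusted p = 0.136), and it was 0.81 ± 0.14 without HT-29 0 ng/mL replicate 3. Averages of ODC1 were 15.20 ± 0.24 in FA-treated SW480 and 14.66 ± 0.08 in FA-treated HT-29 (SD, n = 3 each), and the difference of 0.54 ± 0.16 passed (limma adjusted p = 0.0245). This call was lost after a further quantile normalization (adjusted p = 0.0733), after median centring (0.124) and without HT-29 10000 ng/mL replicate 1 (0.0579) or 3 (0.0777) or SW480 10000 ng/mL replicate 2 (0.0929). Untreated SW480 and HT-29 cells averaged 14.68 ± 0.20 and 14.34 ± 0.28, and that difference of 0.34 ± 0.16 did not pass (adjusted p = 0.122). It was 0.19 ± 0.15 without HT-29 0 ng/mL replicate 3. SRM was 1.54-fold higher in treated SW480 than in treated HT-29 and met the criteria of the methods, at a limma adjusted p of 0.0946. This adjusted p was 0.0130 with a separate fit and 0.00335 with array weights. It was 0.0447 without HT-29 0 ng/mL replicate 3 and 0.406 after a further quantile normalization. Between untreated lines the SRM difference was 0.43 ± 0.27 (limma adjusted p = 0.234), and 0.17 ± 0.25 without HT-29 0 ng/mL replicate 3. That untreated difference passed with array weights (adjusted p = 0.0292) and without SW480 0 ng/mL replicate 2 (0.0380). For AMD1 the line differences were 0.31 ± 0.36 with FA and 0.68 ± 0.36 without it. When the array that stood apart was left out, they were 0.31 ± 0.16 and 0.18 ± 0.17.

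AZIN1 was higher in SW480, by 0.46 ± 0.15 with FA (limma adjusted p = 0.0307) and by 0.76 ± 0.15 without it (limma adjusted p = 0.00219). After a further quantile normalization these differences were 0.06 and 0.19 and did not pass (adjusted p = 0.870 and 0.566). The treated difference also did not pass after median centring (adjusted p = 0.112) or without any single one of 5 of the 6 treated arrays, all but SW480 10000 ng/mL replicate 1 (0.0550 to 0.109). The untreated difference was 0.82 ± 0.17 without HT-29 0 ng/mL replicate 3. OAZ2 was lower in SW480, with a difference of -0.48 ± 0.10 with FA (limma adjusted p = 0.00285) and of -0.30 ± 0.10 without it (limma adjusted p = 0.0292). The treated difference passed under every alternative tried. The untreated difference did not pass with a separate fit (adjusted p = 0.119), after median centring (0.194) or without HT-29 0 ng/mL replicate 1 (0.0626) or 2 (0.0887) or SW480 0 ng/mL replicate 2 (0.0965) or 3 (0.0592), and it was -0.39 ± 0.08 without HT-29 0 ng/mL replicate 3.

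OAZ1 showed how far a single array reached. Untreated SW480 differed from untreated HT-29 by 0.32 ± 0.57 with all arrays (limma adjusted p = 0.689) and by -0.56 ± 0.12 without HT-29 0 ng/mL replicate 3 (limma adjusted p = 0.00448), so the direction turned. Treated SW480 arrays, at 15.53 to 15.77, all lay below treated HT-29 arrays, at 15.88 to 16.09. That difference of -0.34 had an SE of 0.57 and a limma adjusted p of 0.681 in the common fit, and an SE of 0.11 and a limma adjusted p of 0.0259 without the array. In all, 8 genes passed among treated cells without it, where 57% of all clusters did, and 6 among untreated cells, where 53.9% did. Of single-symbol clusters 70.1% and 67.6% passed.

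PAOX was 0.15 higher in SW480 at both doses (limma adjusted p = 0.0221 with FA and 0.0176 without it), on values with almost no spread, and this difference was -0.10 with FA and 0.02 without it after a further quantile normalization. The treated call was also lost after median centring (adjusted p = 0.677) and without any single one of 5 of the 6 treated arrays, all but SW480 10000 ng/mL replicate 2 (0.0552 to 0.0677), and the untreated call after median centring (0.207) and with a separate fit (0.103). Without HT-29 0 ng/mL replicate 3 the untreated difference was 0.16 ± 0.03 for PAOX and -0.005 ± 0.09 for SMOX. SMOX did not pass at either dose in the common fit, at 0.16 ± 0.09 with FA and -0.06 ± 0.09 without it. After a further quantile normalization the treated difference of SMOX was -0.17 (limma adjusted p = 0.412). The untreated difference was then -0.46 and passed (limma adjusted p = 0.0355).

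**Figure D4:**
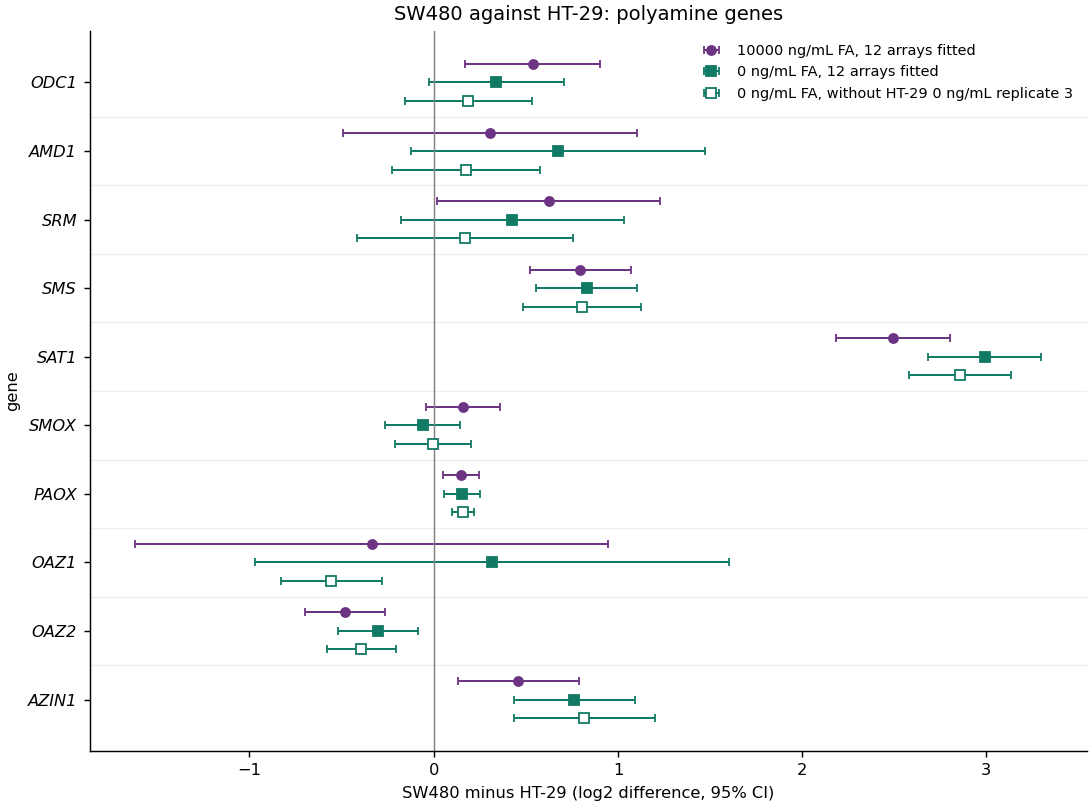
Difference between SW480 and HT-29 (horizontal axis, log2, with 95% confidence interval) for each polyamine gene in FA-treated and in untreated cells, and in untreated cells without HT-29 0 ng/mL replicate 3. SAT1 stands at 2.49 and 2.99, and the untreated value of OAZ1 is 0.32 with that array and -0.56 without it, while the PAOX value with FA turns negative after a further quantile normalization.

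A list of 30 genes around the pathway covers ornithine supply, transport, SAM supply, methionine salvage, hypusine formation and transcription factors, and 28 of them were measured. With FA 0 of 28 passed in SW480 (0.00592% of all clusters) and 0 of 28 in HT-29 (0%) in limma. At an unadjusted p under 0.05 there were 3 in SW480 (4.06% of all clusters) and 2 in HT-29 (5.44%), or 7 (8.61%) and 1 (4.19%) without the array that stood apart. In SW480 the smallest p was that of the quinone reductase NQO1, which read 13.60, 13.68 and 13.43 with FA, against 13.14, 12.88 and 12.63 without it. The groups did not overlap, and its difference of 0.69 ± 0.16 met the criteria of the methods (unadjusted p = 0.00159, limma adjusted p = 0.706). The SAM synthase MAT2A followed with 11.65, 12.15 and 11.95 against 11.65, 11.12 and 11.30, a difference of 0.56 ± 0.20 (unadjusted p = 0.0201), and then the salvage enzyme ADI1 with 0.15 ± 0.06 (unadjusted p = 0.0386). MAT2A makes the SAM that AMD1 consumes, and its SW480 value without FA was lowest on replicate 2, as were those of AMD1, SRM and SMS. That replicate had the highest median over all clusters of the SW480 arrays.

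In HT-29 the smallest p among these genes was that of agmatinase (AGMAT), which read 7.25, 7.53 and 7.30 with FA, against 7.25, 7.07 and 6.53 without it (0.41 ± 0.17, unadjusted p = 0.0335). The regulatory subunit of SAM synthase MAT2B followed with 0.29 ± 0.13 (unadjusted p = 0.0449) and the salvage enzyme APIP with 0.17 ± 0.08 (unadjusted p = 0.0533). All 3 had a limma adjusted p of 0.587. Without untreated replicate 3 the differences were 0.20 for AGMAT (unadjusted p = 0.0924), 0.36 for MAT2B (unadjusted p = 0.0293, then the smallest) and 0.075 for APIP (unadjusted p = 0.0533).

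Between the lines 23 of the 28 passed at each dose, 17 higher and 6 lower in SW480, where 53% of single-symbol clusters passed among treated and 53.7% among untreated cells. Without the array that stood apart 26 passed at each dose, where 70.1% of single-symbol clusters did among treated and 67.6% among untreated cells. In ornithine metabolism, mitochondrial arginase (ARG2), which makes ornithine, was 10.6-fold higher in SW480 with FA and 10.8-fold without it, and ornithine aminotransferase (OAT), which uses it, was 3.10-fold and 3.58-fold higher. MYC was 7.08-fold higher with FA and 8.88-fold without it, and its partner MAX was higher by 0.66 and 0.59 on the log2 scale. The hypusinated translation factor EIF5A2, whose modified residue is made from spermidine, was higher by 3.80 with FA and 3.76 without it on the log2 scale, its relative EIF5A was 1.52-fold and 1.44-fold higher, and the modifying enzymes DHPS and DOHH 1.89-fold and 1.79-fold higher with FA. The SAT1 relative SAT2 was 5.35-fold and 6.02-fold higher, and the polyamine transport ATPase ATP13A3 2.85-fold and 3.46-fold higher. These calls had limma adjusted p of at most 0.00730.

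Within methionine salvage, which recycles the by-product of spermidine and spermine synthesis, the directions were mixed. MRI1 was 2.20-fold higher in SW480 with FA and 2.29-fold without it, and APIP 1.54-fold and 1.73-fold, while MTAP was lower, with log2 differences of -0.98 and -0.73, and so was ENOPH1, with -0.77 and -1.15. NQO1 was lower, with log2 differences of -1.73 with FA and -2.21 without it. The remaining calls that passed at both doses were MAT2A, MAT2B, ADI1 and the antizyme inhibitor AZIN2 upward, and the antizyme OAZ3 and the vesicular transporter SLC18B1 downward. AGMAT (lower) and SLC3A2 (higher) passed among treated but not untreated cells, and ARG1 (lower) and AOC1 (higher) among untreated but not treated ones. Without HT-29 0 ng/mL replicate 3, AGMAT, ARG1 and AOC1 passed at both doses, and SLC3A2 still passed among treated cells alone. Whether those line differences depend on the dose was tested as the difference of the FA effects, and none of the 28 passed it (smallest unadjusted p = 0.0541, limma adjusted p = 0.939). None passed without HT-29 0 ng/mL replicate 3 either, where NQO1 had the smallest p (0.64, unadjusted p = 0.00875, limma adjusted p = 0.747). At an unadjusted p under 0.05 there were then 3 (NQO1, NFE2L2 and ENOPH1), against 6.19% of all clusters.

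**Figure D5:**
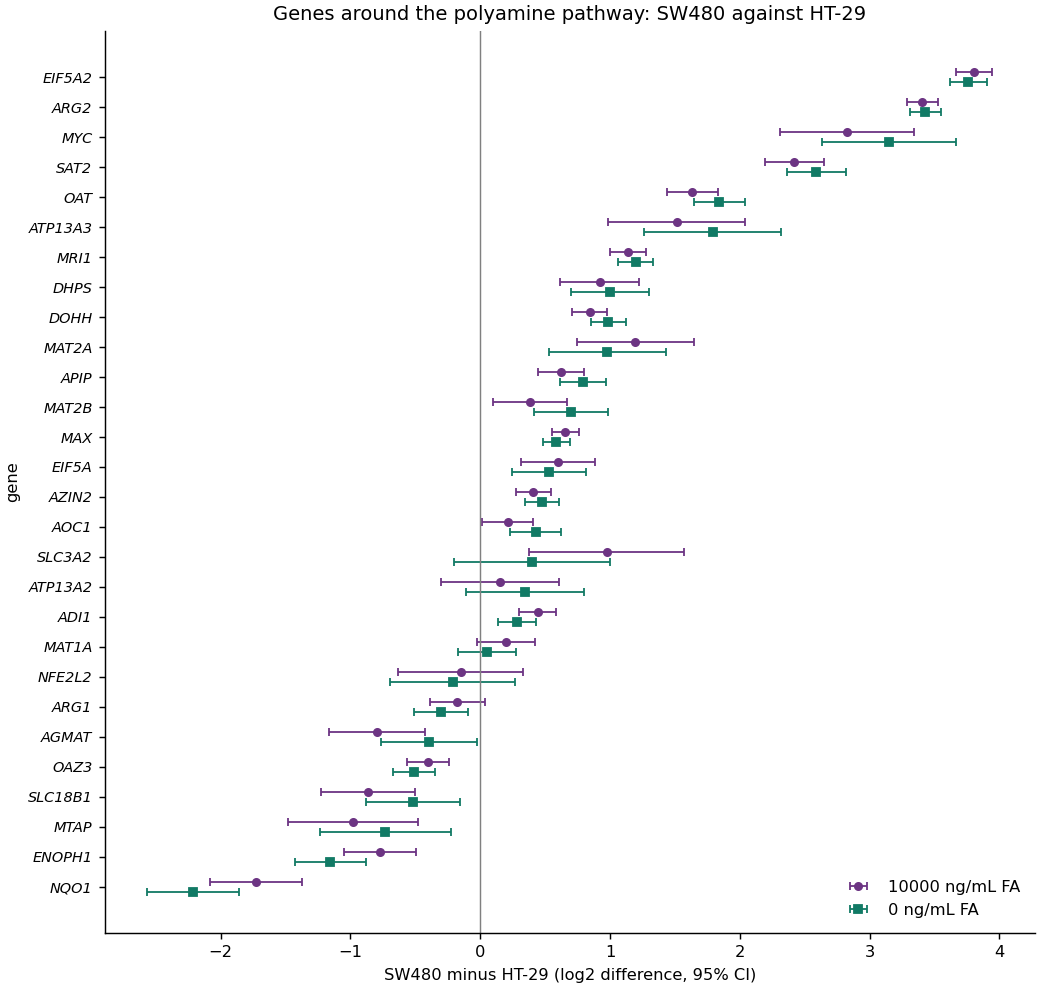
Difference between SW480 and HT-29 (horizontal axis, log2, with 95% confidence interval) for the 28 measured genes around the pathway in FA-treated and untreated cells, ordered by the untreated difference. EIF5A2, ARG2, MYC and SAT2 lead at 3.76, 3.43, 3.15 and 2.59 without FA, and NQO1 is lowest at -2.21.

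The clusters most like ODC1 over the 12 arrays, after subtraction of each line's mean, were those of SRSF1 (Pearson r = 0.99), C3orf52 (0.96) and KCTD9 (0.96), and the same 3 led over 11 arrays without HT-29 0 ng/mL replicate 3. For AMD1 they were ARL14EP (0.99), EIF4G2 (0.99) and FUCA2 (0.98), of which ARL14EP and EIF4G2 stayed among the leading 3 over 11 arrays. For SAT1 they were HAGH (0.91), POLR2K (0.91) and BAIAP2L2 (0.90), and for SMOX they were RPSAP9 (0.97) and both clusters of ASMTL-AS1 (0.96). None of these led over 11 arrays. The points share arrays, normalization and the FA contrast, and the leading genes were picked among all single-symbol clusters.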

How the data were processed

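The deposited table holds log2 signals that the authors made with SST-RMA (correction for background, scaling and summary of probes to clusters) using Transcriptome Analysis Console 4.0, while the labels give RMA with no version. The genome build behind the clusters is not given in the sources used here, and 0 sample columns were left aside. FA was dissolved in NaOH, and the labels name no solvent control among the arrays, so effects of FA and of NaOH cannot be told apart. Total RNA, not cells, was read, and the number of arrays limits the precision.

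Values were used as deposited. limma 3.58.1 in R 4.3.3 fitted 1 mean for each of the 4 groups over all 12 arrays (8 residual degrees of freedom, moderated variances, 2-sided tests). Benjamini-Hochberg adjustment ran over the 67528 clusters of each of the 5 comparisons separately. The methods' criteria (unadjusted p of at most 0.05, fold change of at least 1.5) were applied to the same fit. Confidence intervals are 95%. The fit was tested on simulated data. Genes were named from platform rows with 1 symbol, the cluster with the highest mean standing for a gene. Named beside the members are listed neighbours with a call or with the 3 smallest p for FA in a line, and the 3 clusters most like ODC1, AMD1, SAT1 and SMOX. SLC22A3 and PMF1 of the neighbour list were not analysed here. Members and lists were chosen with earlier results of these data known. Replicates are labelled biological, so that p-values rest on the spread among these 12 arrays. Alternatives were a separate fit per comparison, robust moderation with a variance trend, a replicate block, array weights, dropping the dimmest 33.3% of clusters, a further quantile normalization, median centring, single-symbol clusters, a fold change of at least 2, and leaving out each array. The likeness over 11 arrays was added after seeing the data. Promoters were searched in Python 3.11.15 and figures drawn with matplotlib 3.10.9.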

Additional observations from a re-analysis of the deposited data

How the results depend on the processing

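Between treated lines 6 polyamine genes passed the adjusted test, 3 after a further quantile normalization and 3 after median centring. When single arrays of these groups were left out 3 to 5 passed, with 3 without HT-29 10000 ng/mL replicate 1 or replicate 3. With a separate fit of these groups 9 passed, as did 9 with array weights and 5 with a replicate block. Between untreated lines 5 passed, 3 after either scaling, 3 with a separate fit of these groups, and 4 to 6 when single arrays were left out. Array weights gave 7 there and a replicate block 4. The criteria of the methods were met by 3 genes at each dose and by 4 among treated lines with array weights. They were met by 1 among untreated lines after quantile normalization and by 1 at each dose with a fold change of at least 2. Leaving out arrays gave 2 to 5 among treated lines, with 5 without SW480 10000 ng/mL replicate 1, and 3 to 4 among untreated lines. For FA 0 genes passed in either line, except 1 in HT-29 with array weights (SMS, 0.34, adjusted p = 0.0345). Leaving out arrays gave 0 adjusted calls for FA and 0 to 1 gene meeting the criteria in SW480, in HT-29 and in the difference of the FA effects. The causes were not tested.

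Directions turned mostly for values near 0. With array weights OAZ1 was -0.19 for FA in HT-29, -0.58 between untreated lines (adjusted p = 0.00239) and 0.20 in the difference of the FA effects, AMD1 0.10 in that difference and OAZ2 -0.028 for FA in SW480. After quantile normalization PAOX was 0.12 for FA in HT-29, 0.0078 for FA in SW480 and -0.10 between treated lines, AZIN1 -0.067 for FA in HT-29, SMOX -0.0079 for FA in SW480 and -0.17 between treated lines, and SMS 0.18 in the difference of the FA effects. After median centring PAOX was 0.15 for FA in HT-29 and 0.04 in SW480. Without HT-29 0 ng/mL replicate 3, in the common and in the separate fit, OAZ1 was -0.17 for FA in HT-29 and -0.56 between untreated lines. Leaving out single arrays gave ranges for FA in SW480 of -0.01 to 0.055 (SMOX), -0.035 to 0.07 (OAZ2), -0.057 to 0.12 (OAZ1) and -0.21 to 0.027 (AZIN1). For the difference of the FA effects the ranges were -0.67 to 0.13 (AMD1), -1.12 to 0.22 (OAZ1), -0.14 to 0.07 (SMS), -0.093 to 0.45 (SRM) and -0.013 to 0.0067 (PAOX). For OAZ1 they were -0.17 to 1.18 for FA in HT-29 and -0.56 to 0.79 between untreated lines. Counted over genes, comparisons and alternatives, single-gene values kept direction and side of the threshold 699 times, lost a call 31 times, gained a call 10 times and turned 30 times.

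Same-numbered treated and untreated arrays had correlations of their deviations of -0.08, 0.01 and 0.40 in SW480 and of -0.07, 0.16 and -0.02 in HT-29. Differently numbered ones had -0.34 to 0.32 in SW480 and -0.16 to 0.13 in HT-29. With so few arrays these values cannot decide whether replicate numbers pair the arrays. With the replicate number as a block, 0 polyamine genes passed for FA in either line, PAOX lost its calls between lines (adjusted p = 0.0959 with FA and 0.0822 without it) and no other call moved. Each gene had 1 cluster, so averaging a gene's clusters gave the same values, and a separate fit of the difference of the FA effects is the common fit.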
